A study of Mus musculus with 91 samples.

Results

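The genes described here encode the machinery of oxidative phosphorylation. They were chosen by symbol from the 53379 genes of the count table (symbols starting Nduf, Uqcr, Cox4 to Cox8 or Atp5, the symbols Sdha, Sdhb, Sdhc and Sdhd, and the mitochondrially encoded mt-Nd, mt-Co, mt-Cytb and mt-Atp genes). Of 119 genes with such a symbol, 9 carry a pseudogene suffix and were dropped, and 4 had reads in fewer than 10 of the 91 cells (Cox6a2, Cox7b2, Cox8b and Cox8c). The remaining 106 genes are 93 nuclear and 13 mitochondrial members. The nuclear members are 78 subunits, 8 assembly factors of complex I, 4 retrocopies, and Ndufa4l2, Cox7a2l and Atp5s, which are a paralogue of a subunit, a supercomplex factor and a coupling factor.

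Oxidative phosphorylation takes place in the inner mitochondrial membrane. Complexes I, III and IV pass electrons from NADH to oxygen and pump protons, complex II feeds electrons from succinate into the same chain without pumping, and complex V, the ATP synthase, lets the protons back to make ATP. Complexes I, III, IV and V are built from subunits of both genomes, whereas complex II is wholly nuclear, so that most of the machinery needs transcripts made in the nucleus and in the organelle.

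The cells are 91 single cells of wild-type outbred MF1 mice, taken at early head fold, around embryonic day 8.0, from the caudal lateral epiblast, the region flanking the node and the upper streak that holds neuromesodermal progenitors. Tissue pieces were pooled before sorting and no embryo is named for a cell, so the cells form 1 sample and the spread given is over cells, with no test. Each library was made by Smart-seq2, a full-length method without molecular identifiers, and held between 709866 and 4439571 counts (median 2507671). A cell was called epiblast-like when Nkx1-2, a gene of axial progenitors, had a higher CPM (counts of the gene per 1000000 counts of the cell) than Aldh1a2, the retinoic acid-synthesising enzyme of paraxial mesoderm, and mesoderm-like otherwise.

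By this rule 43 cells were epiblast-like (47.3% of 91, 95% Clopper-Pearson interval 36.7 to 57.999%, counting error only) and 48 mesoderm-like. Apart from Nkx1-2 and Aldh1a2, which set the classes, the 7 other epiblast markers had a higher mean in the epiblast-like cells and the 7 other mesoderm markers in the mesoderm-like cells. The summed markers of node, endoderm, lateral mesoderm, blood, neural and surface ectoderm cells each had a median of 0 CPM in both classes. The highest single value was 1710.98 CPM for the 4 endoderm markers in 1 mesoderm-like cell. This value came from Cer1, while Sox17 and Trf had 0 reads in both classes. Cell B10, the epiblast-like cell nearest the line, had 688 CPM of Nkx1-2 and 570 CPM of Aldh1a2, and cell G3, the nearest mesoderm-like cell, had 164 and 301 CPM.

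Nuclear and mitochondrial members differed in how they were distributed over the classes. The 13 mitochondrial members all had a lower mean in the epiblast-like cells, with a median log2 ratio (epiblast-like over mesoderm-like, mean CPM with 1 CPM added to each) of -0.29. Of these, 5 share nearly all their sequence with nuclear copies, as described below, and the median of the other 8 was -0.34. The 93 nuclear members were divided, with 41 higher and 52 lower in the epiblast-like cells and a median of -0.05 (-0.00 without the 5 cells highest in these genes), beside a median of 0.01 over all 13767 genes with reads in at least 10 cells, of which 51.8% were higher and 48.2% lower in the epiblast-like cells. A ratio of at least 2-fold was reached by 1 of the 93 nuclear and 0 of the 13 mitochondrial members, against 14.8% of all 13767 genes. Reads in all 91 cells were found for 64 of the 93 nuclear members, and among the 3178 genes with reads in at least 82 cells the share past 2-fold was 2.89%, with 0 of the 80 nuclear members of that depth past it.

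**Figure D1:**
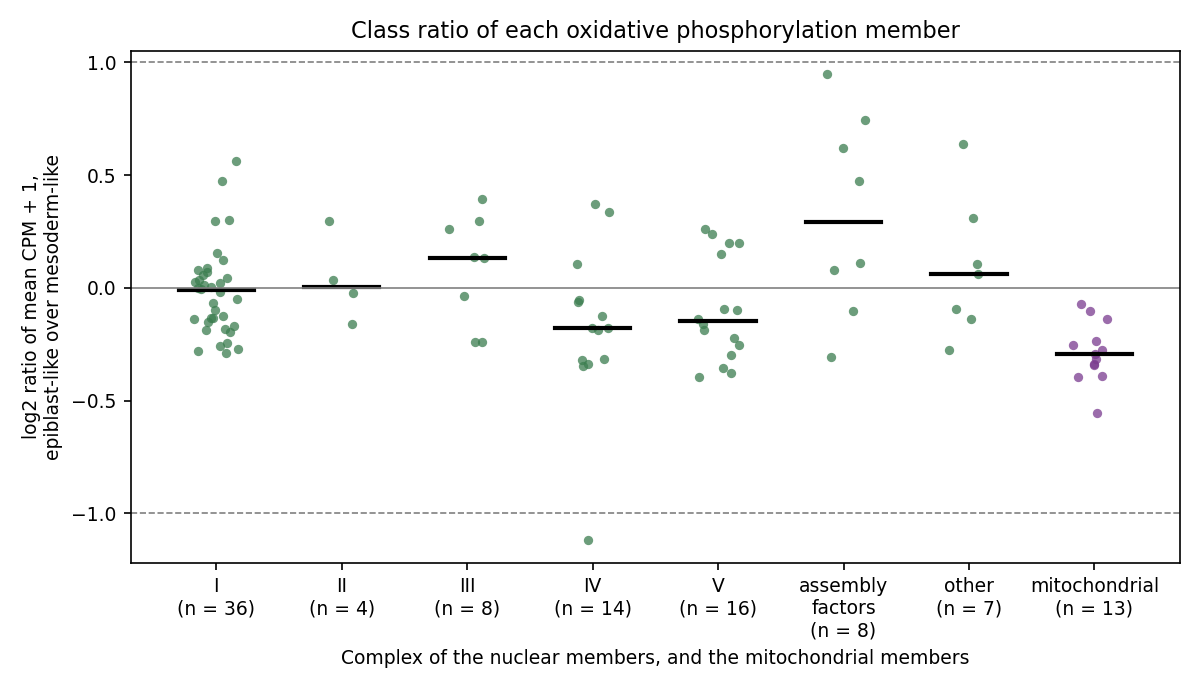
Each point is 1 of the 106 members, placed by complex (nuclear subunits of complexes I to V, complex I assembly factors, the 7 other nuclear members, and the 13 mitochondrial members), with the log2 ratio of mean CPM + 1 in epiblast-like over mesoderm-like cells on the vertical axis, black bars at the medians and dashed lines at 2-fold. The mitochondrial points all sit below 0, the nuclear points lie on both sides, and Cox4i2 of complex IV is the point past the lower dashed line.

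Summed over its members, the nuclear set took 1.86 ± 0.20% of the counts in epiblast-like cells (SD, n = 43 cells) and 1.91 ± 0.31% in mesoderm-like cells (SD, n = 48 cells), with a median of 1.82% in both. The range was 1.48 to 2.48% in the former and 1.59 to 3.30% in the latter, so the classes overlapped for all but 2 mesoderm-like cells above the highest epiblast-like cell and 3 epiblast-like cells below the lowest mesoderm-like cell. The mitochondrial set took 3.37 ± 1.10% of the counts in epiblast-like and 4.20 ± 1.29% in mesoderm-like cells, with lowest, median and highest values of 1.75, 3.41 and 6.59% against 1.88, 4.16 and 6.83%. These distributions overlapped too, and 32 of the 43 epiblast-like cells lay below the mesoderm-like median. A share of counts cannot tell less mitochondrial RNA per cell from more RNA of other genes.

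The cell names in the labels carry a letter from A to H, and the mitochondrial share was lower in the epiblast-like cells within 8 of 8 letters, by between 0.408 and 1.31 percentage points. The nuclear share was lower within 4 of 8. The mitochondrial ribosomal RNAs, which are not members, went the same way as the mitochondrial members, at 0.416 ± 0.154% of counts in epiblast-like and 0.570 ± 0.161% in mesoderm-like cells.

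**Figure D2:**
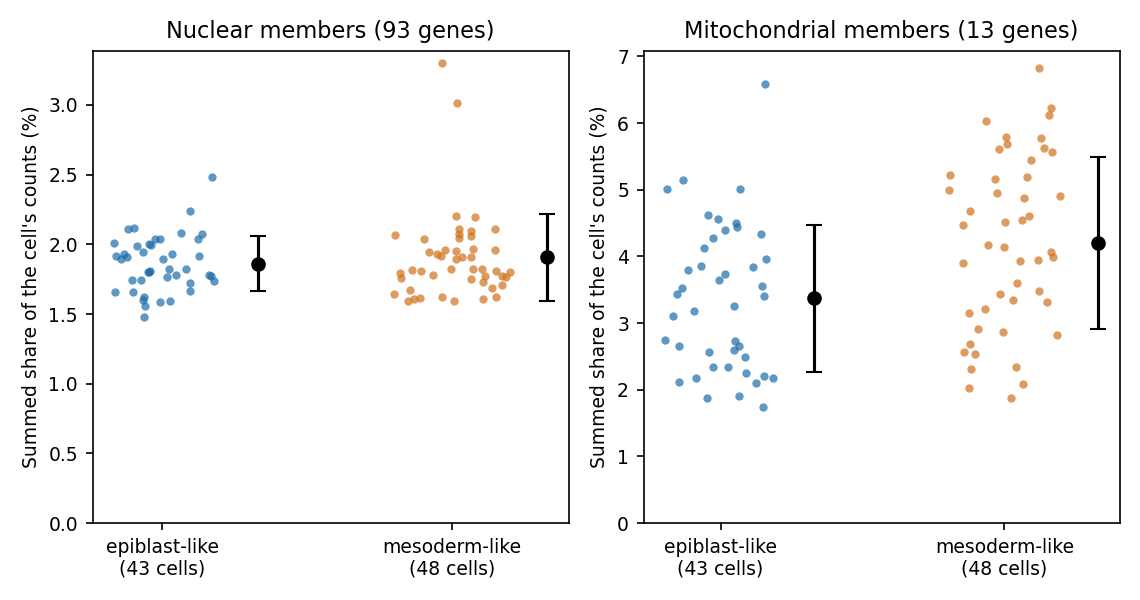
Summed share of each cell's counts (%) taken by the 93 nuclear members (left) and the 13 mitochondrial members (right), with 1 point per cell and black points with bars for the mean and SD over the 43 epiblast-like and 48 mesoderm-like cells. The nuclear shares lie at 1.86 and 1.91% on average and the mitochondrial shares at 3.37 and 4.20%, with wide overlap in both panels.

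The mitochondrial members were read at very unequal levels. Mt-Cytb, the cytochrome b of complex III, had 15099 CPM per kilobase over all cells, mt-Nd1 of complex I 7060, mt-Co1 of complex IV 5034, and mt-Nd5, mt-Nd6, mt-Nd2 and mt-Nd4 of complex I between 1171 and 1503. Mt-Atp6 and mt-Atp8 of complex V, mt-Co2 and mt-Co3 of complex IV, and mt-Nd3 and mt-Nd4l of complex I had between 1.46 and 39.2 CPM per kilobase. This gap followed shared sequence for 5 of the 6 low genes: 97.8 to 99.9% of the 75-base windows (the read length) of mt-Co2, mt-Co3, mt-Atp6, mt-Nd3 and mt-Nd4l also occur in an annotated gene of nuclear chromosome 1. Such copies are stretches of mitochondrial DNA inserted in the nuclear genome, and a read from them aligns equally well to both places. The 7 annotated copies (Gm28439, Gm10222, Gm28438, Gm28437, Gm10925, Gm28661 and Gm29216, all unprocessed pseudogenes on the minus strand) lie at chr1:24611535-24616197 of GRCm38. The sources used here do not give how reads with several alignments were counted, so the levels of these 5 genes cannot be read as transcript levels. The same holds in part for mt-Nd4 and mt-Co1, of whose windows 61.5% and 39.8% are shared, since their levels were divided by the full length.

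The windows below show the shared and the unshared case, 75 bases from the middle of each transcript, 5′ to 3′, all on GRCm38. Mt-Co2, at chrM:7317-7391 on the plus strand, and Gm28661, at chr1:24615187-24615261 on the minus strand, have the same letters. So have mt-Co3, at chrM:8961-9035, and Gm28437, at chr1:24613543-24613617 on the minus strand. The window of mt-Cytb, at chrM:14679-14753 on the plus strand, occurs in no other annotated transcript.
mt-Co2: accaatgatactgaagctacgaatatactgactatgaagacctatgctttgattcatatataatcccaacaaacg
Gm28661: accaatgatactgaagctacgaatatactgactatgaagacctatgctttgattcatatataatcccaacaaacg
mt-Co3: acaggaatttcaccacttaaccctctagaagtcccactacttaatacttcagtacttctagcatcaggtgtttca
Gm28437: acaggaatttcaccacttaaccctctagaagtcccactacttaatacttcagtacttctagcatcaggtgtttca
mt-Cytb: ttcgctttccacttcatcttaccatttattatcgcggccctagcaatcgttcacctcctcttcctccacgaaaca

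Mt-Atp8 was the sixth low gene, at 14.7 CPM per kilobase, with no window in another annotated transcript. It overlaps mt-Atp6 by 43 bases, and the stretch of chromosome 1 between Gm10925 and Gm28661, chr1:24614652-24614884 (233 bases), holds no annotated gene; its letters were not searched, since no genome sequence was used here. Mt-Nd4 shared 61.5% of its windows with the chromosome 1 copy Gm28439. Mt-Co1 shared 39.8% with 2 annotated genes, and the chromosome 1 copy Gm29216 held 405 of these 586 shared windows. Both mt-Nd4 and mt-Co1 were among the well-read genes. The 5 copied genes together made 0.006% of all counts and the other 8 members 3.80%, so the summed mitochondrial share rests on the latter. All 5 copied and all 8 other genes had a lower mean in the epiblast-like cells, with median log2 ratios of -0.14 and -0.34.

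**Figure D3:**
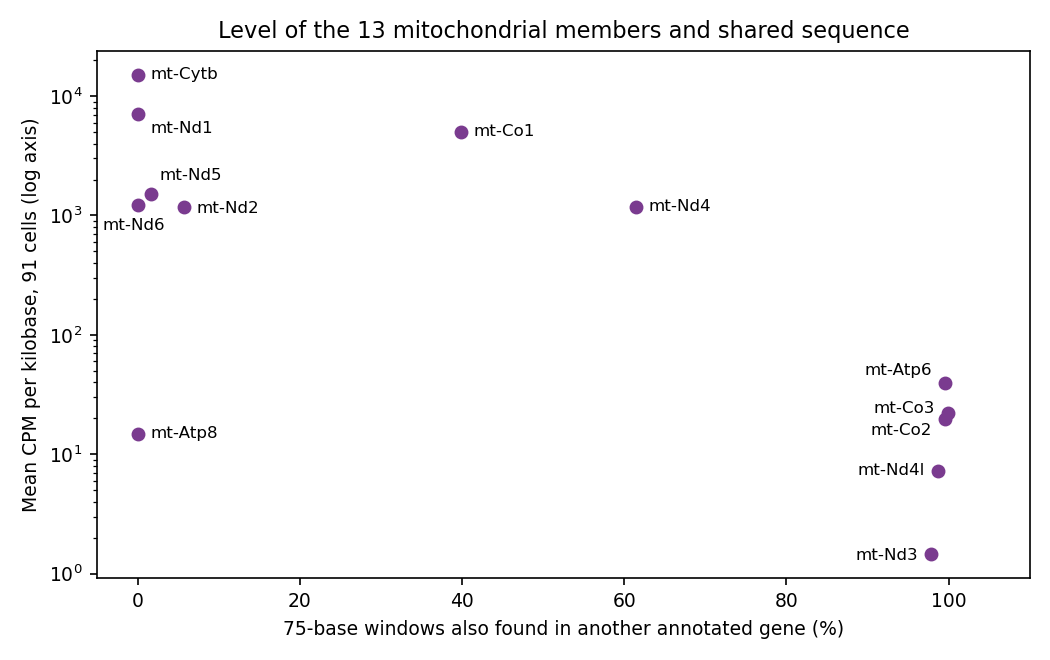
Each point is 1 of the 13 mitochondrial members, with the percentage of its 75-base windows that also occur in another annotated gene on the horizontal axis and its mean CPM per kilobase over 91 cells on a log axis. The 5 genes at 97.8% or more lie at 39.2 CPM per kilobase or less, mt-Atp8 is low at 0%, and the other 7 lie above 1000.

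Among the well-read mitochondrial genes the class ratios ran from mt-Nd4 to mt-Co1. Mt-Nd4, a proton-pumping subunit of complex I, had 655, 1167 and 2415 CPM as lowest, median and highest value in epiblast-like cells and 540, 1931 and 3485 CPM in mesoderm-like cells. Its means were 1292 ± 430 (SD, n = 43) and 1900 ± 587 (SD, n = 48), a log2 ratio of -0.56. Mt-Nd4 had the lowest ratio of the 13, yet the classes overlapped.

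Mt-Cytb had 6379, 14756 and 30448 CPM in the epiblast-like class and 8719, 18856 and 36360 CPM in mesoderm-like cells, a log2 ratio of -0.34. Mt-Nd2 and mt-Nd6 were at -0.39, mt-Nd5 at -0.34, mt-Nd1 at -0.27 and mt-Co1, the catalytic subunit of cytochrome c oxidase, at -0.23. All 7 were on the same side, and the spread over cells within a class was wide for each. Mt-Nd6 is encoded on the other strand of the mitochondrial genome and overlaps mt-Nd5 there, and the library kit does not mark strand, so reads of this overlap cannot be told apart.

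The nuclear subunits of complex I were the largest group. Of 36 subunits, 16 were higher and 20 lower in the epiblast-like cells, with a median log2 ratio of -0.01. The 7 nuclear core subunits, which carry the flavin, the iron-sulphur clusters and the quinone site, were all higher in the epiblast-like cells, with a median of 0.12 (6 of 7 with size factors), and 9 of the 29 accessory subunits were, with a median of -0.10. Among the 3178 deeply read genes 53.7% were higher in the epiblast-like cells.

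Ndufv1, the subunit that binds NADH and the flavin, stood at the top of the subunits. It had 18.6, 119 and 524 CPM as lowest, median and highest value in epiblast-like cells and 0, 77.7 and 346 CPM in mesoderm-like cells, with means of 148 ± 94.2 and 99.8 ± 82.3 and a log2 ratio of 0.56. Ndufv3, an accessory subunit of the same module, followed at 94.1 ± 48.8 against 67.4 ± 44.9 CPM (0.47), and Ndufs3 of the core was at 0.30. Ndufs1, the largest iron-sulphur subunit, was close to equal at 160 ± 119 and 158 ± 133 CPM (0.02). At the other end were the accessory subunits Ndufs5 at -0.29, Ndufa1 at -0.28 and Ndufb8 at -0.27.

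Complex I also has assembly factors, which help build it and are absent from the finished enzyme. Of the 8 Ndufaf members 6 were higher in the epiblast-like cells, against 51.8% of all genes, with a median of 0.29. Ndufaf3 had a mean of 25.3 ± 35.4 CPM in the epiblast-like class and 12.6 ± 15.7 CPM in mesoderm-like cells (0.95), Ndufaf7 had 46.7 ± 49.6 and 27.5 ± 35.3 CPM (0.74), and Ndufaf5 29.9 ± 25.3 and 19.1 ± 30.6 CPM (0.62). These 3 had reads in 52, 58 and 53 of the 91 cells, and each SD was about as large as its mean or larger. Ndufaf4, read in 90 cells, was at 320 ± 189 and 303 ± 210 CPM (0.08).

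Complex II showed 2 genes on each side. Sdhd, a membrane anchor, had 135, 447 and 914 CPM as lowest, median and highest value in epiblast-like and 55.2, 353 and 936 CPM in mesoderm-like cells, with a log2 ratio of 0.30. Sdha, the flavoprotein that oxidises succinate, was at 396 ± 199 and 387 ± 204 CPM (0.03), Sdhb, the iron-sulphur subunit, at 362 ± 118 and 368 ± 139 CPM (-0.02), and Sdhc, the other anchor, at 96.1 ± 65.7 and 107 ± 73.6 CPM (-0.16). All 4 overlapped between the classes over most of their range. The signs of Sdha and Sdhb turned under 4 and 2 of the other processing settings, so these genes have no direction here.

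In complex III, which passes electrons from ubiquinol to cytochrome c, 5 of 8 nuclear subunits were higher in the epiblast-like cells. Their median was 0.13, and of all genes 51.8% were higher. Uqcrc1, a core subunit, had 251, 681 and 1290 CPM as lowest, median and highest value in epiblast-like cells and 119, 516 and 1070 CPM in mesoderm-like cells, with means of 703 ± 296 and 534 ± 221 (0.39). Uqcrfs1, the Rieske iron-sulphur protein, was at 261 ± 115 and 212 ± 113 CPM (0.30), whereas the small subunits Uqcrb and Uqcr10 were both at -0.24. Uqcrc2, the partner of Uqcrc1 in the core, did not share its ratio, at 160 ± 114 and 164 ± 96.5 CPM (-0.04). Cyc1, the cytochrome c1 of this complex, falls outside the symbol rule and was at 309 ± 148 and 280 ± 131 CPM (0.14).

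Complex IV, cytochrome c oxidase, had the largest share of its nuclear subunits lower in the epiblast-like cells. Of 14 nuclear subunits 11 were lower, against 48.2% of all genes, with a median of -0.18, and their summed share was 0.259 ± 0.0373% against 0.300 ± 0.0702% of counts, with 35 of the 43 epiblast-like cells below the mesoderm-like median. Cox6b1, which holds the oxidase dimer together, had 72.1, 216 and 368 CPM as lowest, median and highest value in epiblast-like and 121, 241 and 898 CPM in mesoderm-like cells (-0.35). Cox7a2 was at 293 ± 94.6 and 371 ± 137 CPM (-0.34), Cox6c at -0.32 and Ndufa4, once counted with complex I, at -0.31. Cox5b was the well-read exception, at 180 ± 65.97 and 167 ± 87.3 CPM (0.10).

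Several oxidase subunits come as a common and a tissue-restricted form, and the common one carried nearly all counts. Cox4i1 had 237 CPM per kilobase over all cells and Cox4i2, its hypoxia-associated paralogue, 3.31. Cox7a2 stood at 354 and Cox7a1, the muscle form, at 4.50, Cox6b1 at 338 and Cox6b2, the testis form, at 2.62, and Ndufa4 at 338 and Ndufa4l2 at 4.55. The muscle forms Cox6a2 and Cox8b and the testis form Cox8c had 0 reads in 91 cells. This allows a share of up to 3.30% (3 divided by 91) of cells with a read in the pool sampled. It sets no limit on cells that express the gene unread. The partners Cox6a1 and Cox8a had reads in all 91 cells. Cox7b2 had 2 reads in 1 cell.

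Cox4i2 was the 1 member past 2-fold, at 1.23 ± 4.22 and 3.84 ± 10.1 CPM (-1.12). It had reads in 16 cells, 11.6% of the epiblast-like cells (95% Clopper-Pearson interval 3.89 to 25.1%) and 22.9% of the mesoderm-like cells (12.03 to 37.3%), and those intervals overlap. Without the 1 cell under 1000000 counts it was no longer past 2-fold. Reads of this gene were absent from 75 of the 91 cells.

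In complex V, 11 of 16 nuclear subunits were lower in the epiblast-like cells, against 48.2% of all genes, with a median of -0.15. The 5 on the higher side were Atp5b, the catalytic subunit of the head, at 1183 ± 338 and 1066 ± 410 CPM (0.15), its partner Atp5a1 at 902 ± 233 and 786 ± 242 CPM (0.20), Atp5d of the central stalk (0.26), and Atp5l (0.24) and Atp5g1 of the membrane part. Atp5mpl and Atp5j2, small subunits of the membrane part, were at -0.39 and -0.38. Atp5j2 had 65.1, 154 and 295 CPM as lowest, median and highest value in epiblast-like and 87.6, 196 and 493 CPM in mesoderm-like cells. Usmg5 and Atpif1, a membrane subunit and the inhibitor of the enzyme that carry other symbols, were at -0.38 and -0.32.

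The proton-carrying c subunit is made from 3 genes that encode the same mature protein. Atp5g3 was the most abundant per kilobase of all annotated exons at 143 CPM, followed by Atp5g1 at 39.3, with Atp5g2 the lowest, and it was lower in the epiblast-like cells (271 ± 120 against 347 ± 195 CPM, -0.35). Atp5g1 was on the other side, at 207 ± 76.6 and 180 ± 80.2 CPM (0.20). With the shortest principal transcript as the length, the order was the same, with Atp5g3 at 436, Atp5g1 at 324 and Atp5g2 at 87.4 CPM per kilobase. Of the windows of Atp5g2, 35.8% occur in another annotated gene.

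The 7 nuclear members that are neither subunits nor assembly factors were mostly scarce. The retrocopies Ndufb4c, Ndufa11b, Cox6c2 and Ndufs6b had means of 0.25 to 28.7 CPM in epiblast-like cells and log2 ratios of -0.28 to 0.06, and every 75-base window of Ndufb4c occurs in its parent Ndufb4, so its reads cannot be told from that gene's. Ndufa4l2 was at 6.38 ± 12.5 and 3.74 ± 8.72 CPM (0.64, reads in 29 cells), Atp5s at 37.8 ± 50.8 and 30.3 ± 73.4 CPM (0.31, reads in 40 cells), and Cox7a2l, which joins complexes III and IV, at 93.3 ± 48.9 and 86.6 ± 44.5 CPM (0.11). Of the other nuclear members, Ndufaf2 shared 63.2% of its windows with another annotated gene.

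**Figure D4:**
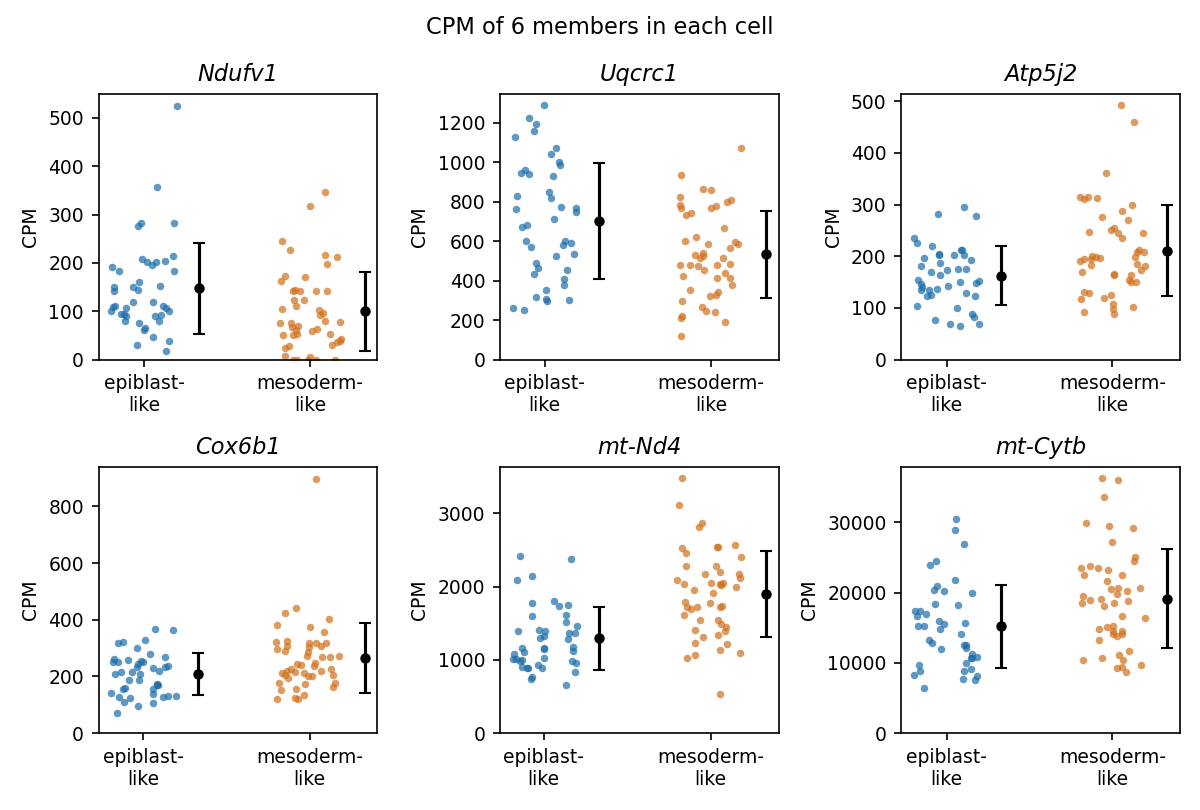
CPM of Ndufv1, Uqcrc1, Atp5j2, Cox6b1, mt-Nd4 and mt-Cytb in each cell, with 1 point per cell and black points with bars for the mean and SD over 43 epiblast-like and 48 mesoderm-like cells. Ndufv1 and Uqcrc1 have the higher mean in epiblast-like cells (148 and 703 CPM) and the other 4 in mesoderm-like cells, and the points of the classes overlap in every panel.

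Within a complex, nuclear subunits were read at levels that differed many-fold per kilobase. With all annotated exons as the length, the highest over the lowest subunit was 51.3-fold in complex I (Ndufa1 over Ndufb2), 10.9-fold in complex II (Sdhd over Sdhc), 6.88-fold in complex III (Uqcr11 over Uqcrc2) and 36.98-fold in complex V (Atp5c1 over Atp5l). With the shortest principal transcript instead these became 16.1, 10.6, 7.72 and 13.1-fold, and other genes stood at the ends: Ndufv3 and Atp5g2 were then lowest in complexes I and V, and Ndufc1, Uqcrb and Atp5j highest in complexes I, III and V. Sdhc and Uqcrc2 were lowest in their complexes on both scales. In complex IV the low end was set by the tissue-restricted forms on both.

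Length also went with the class ratio. The 19 deeply read nuclear members with at most 1000 exon bases had a median log2 ratio of -0.17, with 4 higher in the epiblast-like cells, and the 11 with more than 4000 bases had a median of 0.02. Over all genes read in at least 82 cells the medians for the same length classes were -0.00 and 0.00, and that of genes with 2000 to 4000 bases was 0.11, beside 0.02 for the members. Length and the kind of subunit were not separated here.

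Nuclear subunits of the same complex covaried over cells about as weakly as subunits of different complexes. Over the 91 cells, and for the subunits read in at least 82 of them, the median Spearman rho of 839 pairs of nuclear subunits of the same complex was 0.07, and that of 1936 pairs from different complexes was 0.07. Pairs of mitochondrial members without near-complete copies had a median of 0.60. The highest was mt-Nd6 with mt-Nd5, which overlap, at 0.84. This pair was also the highest in epiblast-like cells (0.88), but in mesoderm-like cells the highest was mt-Nd5 with mt-Co1 (0.85). The part of the overlap in these values was not tested. Nuclear members with such mitochondrial members had a median of -0.17 over the 91 cells. These points share the total of each library, so that a share gained by one gene is lost by others, and are a description.

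The summed shares of the nuclear and mitochondrial sets ran against each other, with a rho of -0.52 in each class. With both shares centred within the letters of the cell names, the rho was -0.18 in epiblast-like and -0.43 in mesoderm-like cells. Atp5j, coupling factor 6 of the ATP synthase, was the nuclear member that went with the mitochondrial genes most, with a rho of 0.69 with mt-Cytb over the 91 cells and of 0.60 and 0.67 with the mitochondrial share in the 2 classes. Uqcrb and Ndufab1 went the same way, whereas Cox8a and Atp5j2 went against it, at -0.73 and -0.68 in the epiblast-like cells.

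Base composition moved with these shares. The 13 mitochondrial members have a GC content of 31.9 to 41.1%, and the nuclear members read in at least 82 cells 36.96 to 63.3% (longest annotated transcript). For each cell, the GC content of the longest transcripts of 3072 other nuclear genes was averaged with the cell's reads as weights, and this GC value ran from 45.7 to 48.7%. Its rho with the mitochondrial share was -0.83 in the 43 epiblast-like and -0.82 in the 48 mesoderm-like cells, and with the nuclear share 0.62 and 0.57. After a linear fit on this value, the rho between the nuclear and mitochondrial shares was 0.07 and -0.06 in the 2 classes.

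The class means of this value were close. The mean GC value was 47.3 ± 0.79% in epiblast-like and 47.2 ± 0.81% in mesoderm-like cells, and with it in a linear fit beside class the mitochondrial share was 0.704 percentage points lower in epiblast-like cells, against 0.826 without the fit. Across the 80 nuclear members a higher GC content went with a more negative rho with the mitochondrial share (rho over genes -0.60 and -0.50 in the 2 classes), and the same held over 3157 nuclear genes (-0.64 and -0.61). The part of base composition in these shares was not tested. It also went with the letter in the cell name: cells of letters A and B had the lowest mean GC values (46.6%) and the highest mitochondrial shares (4.55 and 4.73%), and those of letter D the highest (48.01%) and the lowest share (3.10%).

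**Figure D5:**
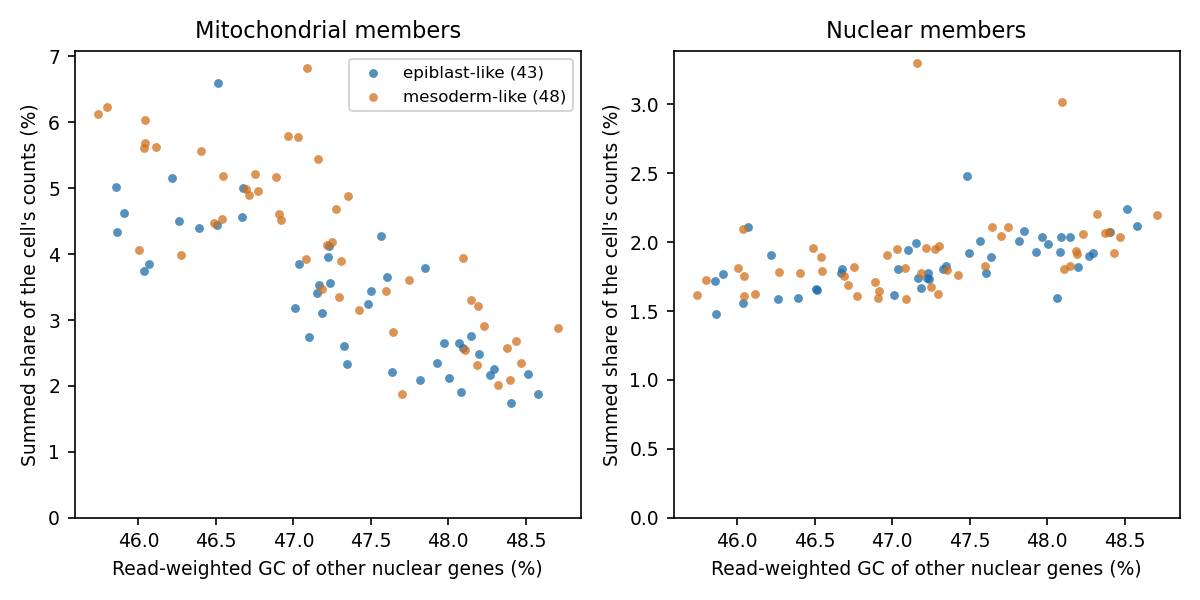
Summed share of counts (%) of the mitochondrial members (left) and nuclear members (right) in each of 91 cells against the mean GC content (%) of the transcripts of 3072 other nuclear genes, weighted by the cell's reads. The mitochondrial share is lower and the nuclear share higher in cells with a higher value, and at a given value the mesoderm-like points on the left lie higher on average, by 0.704 percentage points in a linear fit.

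Genes around the respiratory chain were read for comparison. The tricarboxylic acid cycle makes the NADH and succinate that the chain oxidises. Of 16 genes of this cycle and of pyruvate dehydrogenase (Pdha1, Pdhb, Dlat and Dld), 13 were higher in the epiblast-like cells. Of all genes 51.8% were. The median of the 16 was 0.23, with 0 past 2-fold. Of 21 genes of a glycolysis list 20 were higher, with a median of 0.97. Of these, 10 were past 2-fold, beside 6.58% of all genes past 2-fold in that direction. The list also holds the glucose and lactate transporters Slc2a1, Slc2a3, Slc16a1 and Slc16a3 and the kinase Pdk1. Of these added genes all but Slc16a1 were past 2-fold. Slc2a3, a glucose transporter, had the highest ratio (1499 ± 631 and 64.4 ± 117 CPM, 4.52), and Aldoc was the 1 gene of the list past 2-fold the other way (-2.24). The summed glycolysis list took 2.07 ± 0.54% of counts in epiblast-like and 0.942 ± 0.264% in mesoderm-like cells. Over cells this list ran against the mitochondrial members, with a rho of -0.82 in epiblast-like and -0.75 in mesoderm-like cells. Centred within letters, these were -0.70 and -0.75, and after the linear fit on GC content -0.27 and -0.28. The GC value counts reads of list genes such as Eno1 and Ldha, and its rho with the list was 0.91 and 0.80. The fit therefore also takes out part of the list's own variation.

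Of the mitochondrial ribosomal proteins, which translate the 13 mitochondrial messages, 52 of 77 were higher in the epiblast-like cells (median 0.14), and of the cytosolic ribosomal proteins 44 of 83 (median 0.01). Of 17 genes of mitochondrial transcription and RNA handling 11 were higher (median 0.12), with Tfam, the transcription and packaging factor of mitochondrial DNA, at 191 ± 140 and 151 ± 106 CPM (0.34) and Tfb1m past 2-fold (1.24, reads in 33 cells). Of 34 further assembly factors 18 were higher (median 0.02, Cox15 past 2-fold in 14 cells). A list of 14 genes held the Coq and Pdss genes of ubiquinone synthesis, Cycs, and the electron transfer genes Etfa, Etfb and Etfdh. Of these 14, 9 were higher (median 0.40, Coq8a past 2-fold the other way in 13 cells). Etfa and Etfb were lower in the epiblast-like cells (-0.34 and -0.51) and Etfdh was higher (0.39). Cytochrome c itself, Cycs, was at 221 ± 43.1 and 224 ± 78.2 CPM (-0.02).

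Promoters of respiratory genes are known for sites of NRF1, ETS factors such as GABP, and YY1, and RefSeq promoters (250 bases before to 50 after the start, GRCm38.p6) were matched for 74 of the 93 nuclear members. The NRF1 motif (GCGCA, any base, then GCGC, on either strand) was in a promoter of 19 members (25.7%) and of 5.19% of all 27025 genes with a promoter. The ETS motif CCGGAAG was in 18 (24.3% against 9.93%) and the YY1 motif AAGATGGC in 11 (14.9% against 3.19%). The motifs do not contain each other, and a match is a match of letters only. The 27025 genes were not limited to genes read in these cells, so members were not compared with other expressed genes. Members with the NRF1 motif had a median log2 ratio of -0.10 and those without it of -0.02. The medians were -0.08 and -0.01 with and without the ETS motif, and -0.10 and -0.02 with and without the YY1 motif, so each group with a motif had the lower median.

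One promoter for each motif is shown for members named above, 5′ to 3′ on the strand of the gene, with the motif in capitals: Uqcrc1 (chr9:108936398-108936697, plus strand) with NRF1 letters at 2 places, Cox6b1 (chr7:30626065-30626364, minus strand) with the ETS letters on the opposite strand, and Atp5j2 (chr5:145191492-145191791, minus strand) with the YY1 letters.
Uqcrc1: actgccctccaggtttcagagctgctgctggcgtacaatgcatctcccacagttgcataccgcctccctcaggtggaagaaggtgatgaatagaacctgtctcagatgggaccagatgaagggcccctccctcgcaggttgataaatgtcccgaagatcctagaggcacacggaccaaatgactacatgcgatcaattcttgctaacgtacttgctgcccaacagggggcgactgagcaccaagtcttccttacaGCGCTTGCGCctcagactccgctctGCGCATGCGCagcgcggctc
Cox6b1: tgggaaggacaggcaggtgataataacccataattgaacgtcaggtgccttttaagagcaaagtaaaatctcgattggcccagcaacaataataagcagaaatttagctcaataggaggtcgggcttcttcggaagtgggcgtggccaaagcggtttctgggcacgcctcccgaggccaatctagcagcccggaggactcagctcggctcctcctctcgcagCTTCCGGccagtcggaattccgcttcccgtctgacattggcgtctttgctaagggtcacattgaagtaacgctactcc
Atp5j2: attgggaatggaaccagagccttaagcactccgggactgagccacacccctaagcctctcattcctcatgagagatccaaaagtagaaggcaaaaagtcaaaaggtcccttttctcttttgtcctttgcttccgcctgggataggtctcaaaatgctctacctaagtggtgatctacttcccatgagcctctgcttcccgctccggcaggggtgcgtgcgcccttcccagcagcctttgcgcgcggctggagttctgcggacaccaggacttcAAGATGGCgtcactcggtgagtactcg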

How the data were processed

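The authors aligned single-end reads to GRCm38 (mm10) with HISAT2 and counted them per annotated gene with featureCounts; the sources used here give neither versions nor how reads with several alignments were handled. The deposited values are raw counts per gene and cell, as whole numbers, and all 91 cells were used. Doublets were not called, since 1 cell was sorted per well.

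CPM was each count over the cell's total times 1000000. Ratios are of mean CPM with 1 CPM added, with 2-fold as the size called. Cells are 1 pooled sample, so means ± SD over cells are descriptions and no test was made. The members and lists were chosen with earlier results of these data known. Named were members past 2-fold, the 5 highest and 5 lowest well-read ratios, all mitochondrial and Sdh members, paralogue pairs, and the highest and lowest of each complex per kilobase; Ndufs5, Ndufb8, Uqcrfs1, Atp5b and others were named after their values were seen.

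Symbols, exon lengths and transcripts came from GENCODE (GRCm38). Without a genome sequence, 75-base windows were compared with transcripts of all other annotated genes, in place of the planned search of the genome. Promoters were matched by symbol or synonym. Python 3.11.15, pandas 2.3.3 and SciPy 1.17.1 were used, and the ratio step was checked on simulated data. The closing section gives 14 planned and 3 added alternatives.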

Additional observations from a re-analysis of the deposited data

Results flagged for a closer look

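Some genes outside the members gave a signal and were marked because no comparison above uses them. Ndufb1-ps, dropped for its pseudogene suffix, had 140 CPM on average with reads in all 91 cells, at 138 ± 83.2 CPM in the epiblast-like class and 141 ± 73.8 CPM in mesoderm-like cells (log2 ratio -0.03); the annotation lists it as a long noncoding RNA at a bidirectional promoter, not as a pseudogene. Of the processed pseudogenes dropped with it, Atp5k-ps2 had 11.2 CPM, Ndufab1-ps 4.51, Atp5c1-ps 2.35 and Uqcrh-ps1 2.07, each with reads in at least 82 cells.

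The 7 chromosome 1 copies of mitochondrial genes also had reads, with mean levels of 29.5 CPM for Gm10925, 16.5 for Gm28437, 11.3 for Gm28438, 6.79 for Gm29216, 4.28 for Gm28661, 3.25 for Gm28439 and 2.87 for Gm10222. All 7 had a lower mean in the epiblast-like cells, like the mitochondrial members. Whether these reads came from chromosome 1 or from the organelle was not tested. No group had between 4 and 10 samples, so no search for single outlying samples was made.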

How the results depend on the processing

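The mitochondrial members all had a lower mean in the epiblast-like cells under each of 14 planned and 2 of 3 added alternatives. The third, a fit with GC content, gives no value per gene and left the summed difference at -0.704 percentage points. Several of these alternatives could not have changed this result. The CPM added to both means cannot turn a sign, and settings that only choose members leave the ratios of those kept unchanged. The count of nuclear members past 2-fold was 1 and became 0 with members read in at least 46 cells, with 10 CPM added, or without the 1 cell under 1000000 counts, and 4 with medians of cells in place of means. The summed nuclear share was 0.0438 percentage points lower in epiblast-like cells and 0.000584 higher with medians, so it has no direction here. Leaving out the 5 cells highest in nuclear members (added after seeing the data) brought the nuclear median from -0.05 to 0.00. Of 45 named members 35 kept their sign under all 11 alternatives run on them, of which those changing the CPM added could not turn it. Sdha, Sdhb, Uqcrc2, Ndufb2, Atp5g2 and Cox7a2l changed sign under at least 1, and Cox4i2, Cox6b2, Cox7a1 and Ndufa4l2 had a ratio of 0 with medians. Ndufaf3 and Ndufaf5 kept their sign but reached 4.05 and 5.06 with medians, where the median mesoderm-like cell had 0.15 and 0 CPM. With size factors 6 of the 7 core subunits of complex I were higher in the epiblast-like cells, 5 of 16 subunits of complex V as before, and 3 of 14 of complex IV; with medians complex V had 7 of 16. The 1 pool of cells, the lack of embryo labels and the unknown treatment of reads with several alignments limit every value. No paired analysis was possible because the cells have 1 group and no pairing.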
